A study of Mus musculus with 8 samples.

Results

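The insulin-like growth factor (IGF) axis was described in epidermis from between the hair follicles of mice with and without G9a, the product of Ehmt2, which methylates histone H3 at lysine 9. The members are 10 genes: the binding protein genes Igfbp2, Igfbp3, Igfbp4, Igfbp5, Igfbp6 and Igfbp7, the ligand gene Igf1, the receptor gene Igf1r and the receptor substrate genes Irs1 and Irs2. They were chosen by the difference of Igfbp3 between G9a cKO and WT, which was among the larger falls in these same arrays, and then by family and pathway, so the values of this comparison are given as a description and no test of them supports anything. Every probe set that the platform annotation assigns to 1 of these genes was taken, which gave 19 probe sets for 8 genes, out of 28898 probe sets that name 1 gene and 45037 in the table. Igfbp7 and Irs2 had no named probe set and were not analysed here.

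The samples are 4 arrays from G9a cKO animals, in which the gene was knocked out conditionally, and 4 from G9a WT animals. In all 8 samples the shaved back skin had received the carcinogen DMBA (7,12-dimethylbenz[a]anthracene, 0.25 mg/ml) and the tumour promoter TPA (12-O-tetradecanoylphorbol-13-acetate, 0.02 mg/ml), 200 µl of each in acetone once a week over 6 weeks, starting when the mice were 8 weeks old. The tissue was taken before tumours formed, and the labels give an age of 15 weeks for both groups. The controls therefore carry the same treatment, and untreated skin was not analysed here. The driver of the knockout, the strain and the sex were not given in the sources used here, nor whether each replicate was a separate animal, so the errors measure the spread between these samples. The design asks how expression differs when G9a is lost at this stage.

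IGF1 is a secreted growth factor that binds the receptor tyrosine kinase IGF1R on keratinocytes; the receptor phosphorylates the docking proteins IRS1 and IRS2, which recruit PI3 kinase and so activate AKT and mTOR. In skin the ligand is known mainly as a product of dermal fibroblasts, while the epidermis carries the receptor. The IGF binding proteins hold the ligand outside the cell, prolong its life or keep it from the receptor, and are themselves cut by proteases; IGFBP3, the main carrier in blood, is also made by basal keratinocytes and can restrain growth.

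The probe sets are compared on the deposited log2 scale, where a difference of 1 is a doubling, and array medians lay between 5.72 and 5.80. Arrays of 1 group correlated with r between 0.993 and 0.998 over probe sets, arrays of different groups with r between 0.992 and 0.996, and no pair was a duplicate. The first principal component (36.9% of the variance) did not part the groups: WT 4 stood at 23.5, near cKO 3 and cKO 4 (18.0 and 19.2), and cKO 2 at -10.7, near the other WT arrays (-20.6 to -11.4). The second component (23.0%) parted them, with cKO at -20.0 to -7.35 and WT at 2.58 to 21.2. Member differences that moved by over 1.5 times without both cKO 2 and WT 4 are given both ways, apart from the dim Igf1 and Igfbp5. Ehmt2 was lower in cKO at probe set 1460692_PM_at, with 6.30 to 7.07 against 9.25 to 9.77 in WT, and read 8.36 ± 0.06 against 8.35 ± 0.12 (SD, n = 4 each) at 1426888_PM_at. Where these probe sets lie relative to the deleted part of the gene was not given in the sources used here. Why they differ was not tested. Keratinocyte genes were bright in every array: the mean over 9 measured markers of 10 was 11.99 to 12.08 in cKO and 12.01 to 12.05 in WT.

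Igfbp3 was the member that differed most. Its probe set 1423062_PM_at read 10.25, 9.80, 9.94 and 9.78 in cKO 1 to 4 and 10.90, 10.86, 11.02 and 11.01 in WT 1 to 4 (log2 level). The lowest WT array was above the highest cKO array, and the WT arrays were closer together than the cKO arrays. The means were 9.94 ± 0.22 and 10.95 ± 0.08 (SD, n = 4 each), a difference of -1.01 (SE 0.10), so that the level was 2.01-fold lower in cKO. This was the 8th lowest difference of the 45037 probe sets. In a limma fit over all probe sets (adjusted p under 0.05 by Benjamini-Hochberg), Igfbp3 was the only member called: 1 of 19 probe sets was called lower, beside 0.0733% of all probe sets, and none higher, beside 0.393%. It was likewise the only member whose groups did not overlap, all 4 cKO arrays below all 4 WT arrays, beside 1.72% of all probe sets. Since this comparison chose Igfbp3, nothing is read from these counts. The gene has 1 named probe set, so no second measurement of it exists here. In bulk samples such as these, fewer cells of a type and less RNA per cell cannot be told apart.

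**Figure D1:**
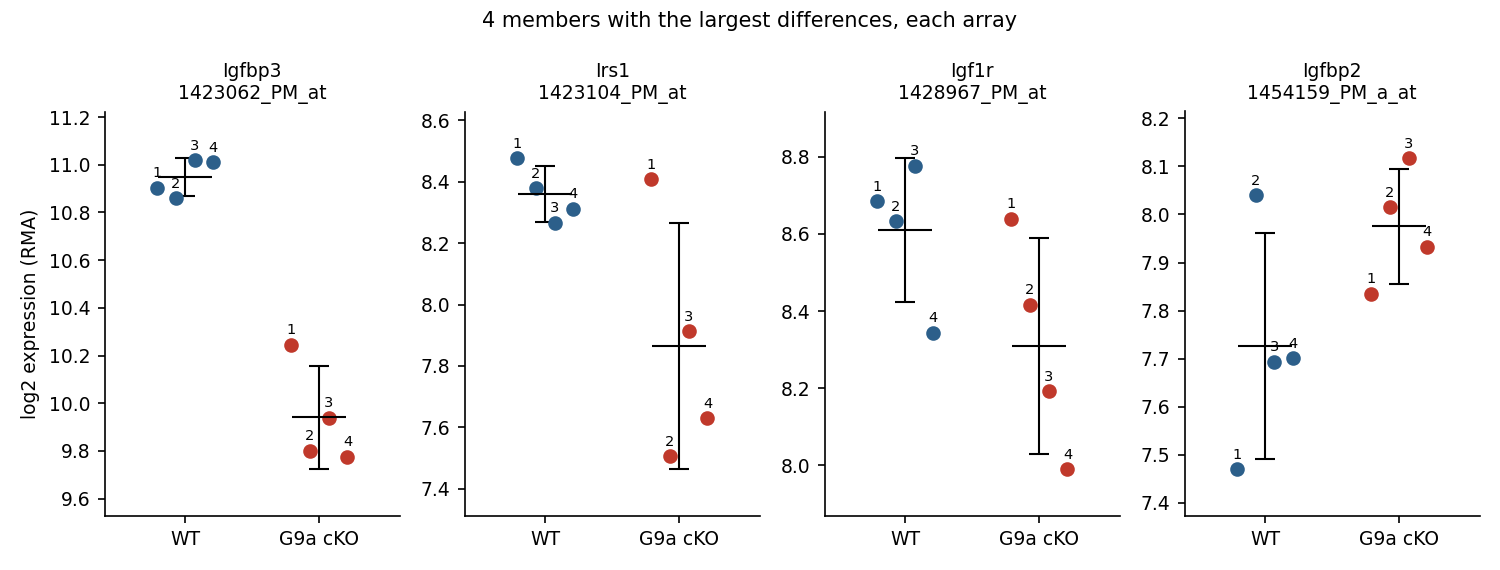
Log2 expression (vertical axis, RMA, a separate scale in each panel) of the 4 members with the largest differences, each by its probe set of largest difference; points are arrays with their replicate numbers, and the horizontal line with bars is the mean ± SD of 4 arrays. For Igfbp3 the WT arrays (10.86 to 11.02) lie above the cKO arrays (9.78 to 10.25), while for Irs1, Igf1r and Igfbp2 the groups overlap.

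The Igfbp3 difference did not depend on a single array. It ran from -1.11 without cKO 1 to -0.95 without cKO 4, and was -0.94 (SE 0.11) without both cKO 2 and WT 4.

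The promoters of Igfbp3 and Igfbp4 are shown because, among the binding protein genes, the first has the largest difference and the second the most probe sets. Each sequence is the 250 bases before the transcription start in RefSeq (GRCm38.p6), read 5′ to 3′ on the strand of the gene: chr11:7213924-7214173 on the minus strand and chr11:99040994-99041243 on the plus strand. Capitals mark TATAAA or TATATA, searched on both strands.
Igfbp3: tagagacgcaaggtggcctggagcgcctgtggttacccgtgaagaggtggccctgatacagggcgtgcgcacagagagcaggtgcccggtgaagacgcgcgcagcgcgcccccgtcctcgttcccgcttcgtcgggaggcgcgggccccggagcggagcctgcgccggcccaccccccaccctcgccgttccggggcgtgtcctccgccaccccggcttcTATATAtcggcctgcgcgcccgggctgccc
Igfbp4: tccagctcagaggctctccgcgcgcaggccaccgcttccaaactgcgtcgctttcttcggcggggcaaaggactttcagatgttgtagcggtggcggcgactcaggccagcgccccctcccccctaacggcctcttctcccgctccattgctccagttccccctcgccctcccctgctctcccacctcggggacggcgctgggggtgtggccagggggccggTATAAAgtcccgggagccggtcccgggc
Both windows hold such a TATA motif close to the start, beginning 30 bases before it in Igfbp3 and 28 bases before it in Igfbp4. Of all 32851 windows of this length, 15.6% hold it at some place. The Igfbp3 window has 32 CpG dinucleotides and a GC content of 73.2%, and the Igfbp4 window has 22 and 69.2%, against a median of 6 CpG over all windows. The letters GGGCGG (GC box) and CACGTG (E-box), searched on both strands, occur in neither. A match of letters is no measure of binding.

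Igfbp4, whose product is an inhibitory carrier cleaved by the protease PAPPA, was measured by 6 probe sets, and none separated the groups. Its brightest probe set, 1437405_PM_a_at, read 10.68, 10.09, 10.52 and 10.32 in cKO 1 to 4 and 10.36, 10.18, 10.16 and 10.43 in WT 1 to 4. The arrays of the groups interleave, and the difference was 0.12 (SE 0.12). The 6 differences ran from 0.04 to 0.12, and 5 of them changed sign when cKO 1 was left out. Without both cKO 2 and WT 4 the 6 stood at 0.14 to 0.27, with 0.27 (SE 0.10) at 1437405_PM_a_at, and none was called. The 6 probe sets agreed on the arrays: over 8 arrays their 15 pairs correlated with r between 0.919 and 0.990, a description of probe sets that share the same RNA. cKO 1, cKO 3 and WT 4 were among the upper 4 arrays in all 6 probe sets. Both groups thus held arrays high and low in Igfbp4. Suffixes _s_at and _x_at mark probes that other transcripts may share.

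Igfbp2, a carrier with preference for IGF2, went the other way from Igfbp3. Its probe set 1454159_PM_a_at read 7.83, 8.02, 8.12 and 7.93 in cKO 1 to 4 and 7.47, 8.04, 7.69 and 7.70 in WT 1 to 4. WT 2 lay within the cKO range, and the other WT arrays lay below it. The difference was 0.25 (SE 0.11), was not called, and ran from 0.16 without WT 1 to 0.35 without WT 2.

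Igfbp6, a carrier that binds IGF2 far more tightly than IGF1, read 5.66 to 6.02 in cKO and 5.77 to 6.10 in WT, a difference of -0.13 (SE 0.10) with overlapping groups. It was -0.20 without cKO 2, -0.08 without WT 2 and -0.26 (SE 0.09) without both cKO 2 and WT 4, and was not called in any of these. Igfbp5, a carrier that binds extracellular matrix, read 3.78 to 3.92 in cKO and 3.74 to 3.90 in WT at its 1 probe set, a difference of 0.03 (SE 0.05). The lowest value of the whole table is 3.06, so Igfbp5 was at the dim end, where a fall cannot be read. No rise of Igfbp5 was called.

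**Figure D2:**
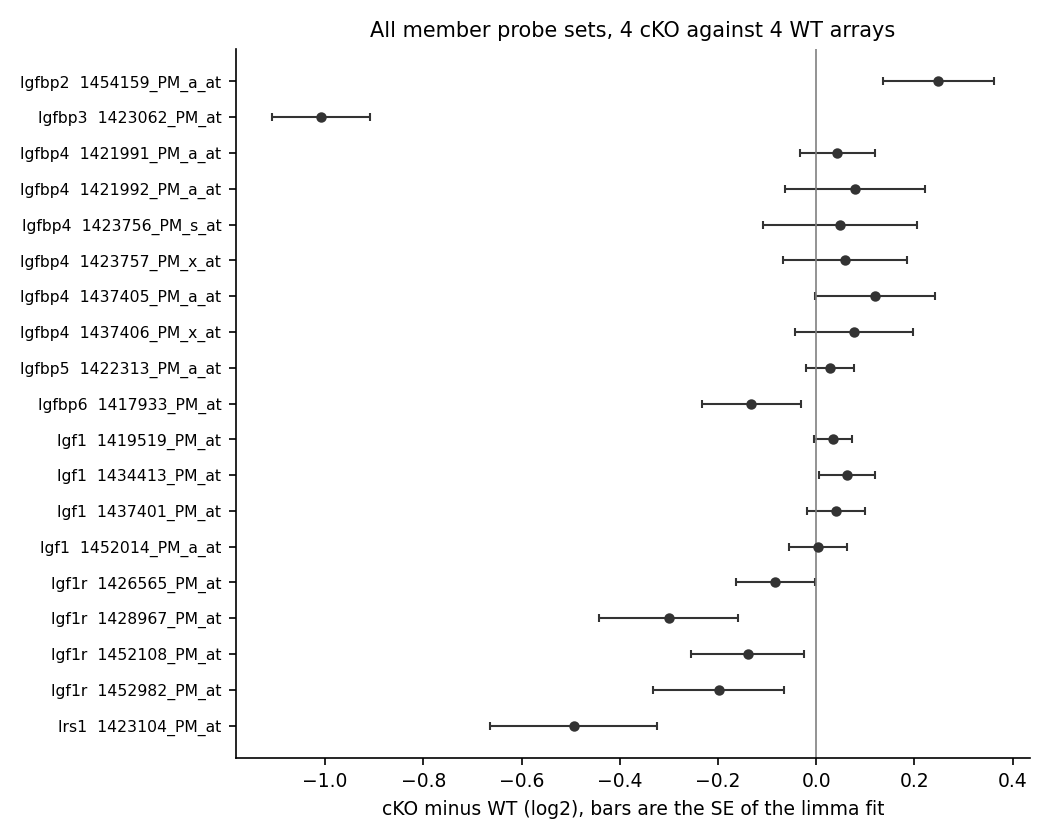
Difference of cKO minus WT (log2, horizontal axis) for each of the 19 member probe sets, with the standard error of the limma fit as bars (4 cKO and 4 WT arrays). Igfbp3 stands at -1.01 and Irs1 at -0.49, and 14 of the 19 probe sets lie within 0.15 of 0.

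The ligand gene Igf1 was dim in every array. Its 4 probe sets read between 3.40 and 5.16 over both groups, and the differences ran from 0.00 to 0.06 with standard errors of 0.04 to 0.06. The brightest of them, 1452014_PM_a_at, read 5.07 ± 0.09 in cKO and 5.07 ± 0.08 in WT (SD, n = 4 each), and its sign turned in 8 of 15 alternative settings. Neither group was shown to have a level above background, and a fall of Igf1 was not detectable here. No rise of Igf1 was called.

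Igf1r, the receptor gene, stood lower in cKO at all 4 of its probe sets, by 0.08 to 0.30, and was not called at any. The largest difference was at 1428967_PM_at, which read 8.64, 8.42, 8.19 and 7.99 in cKO 1 to 4 and 8.68, 8.63, 8.78 and 8.34 in WT 1 to 4. cKO 1 and cKO 2 lay within the WT range, so the groups overlap. The difference was -0.30 (SE 0.14) with all arrays and -0.42 (SE 0.15) without both cKO 2 and WT 4. At 1452982_PM_at it was -0.20 (SE 0.13), at 1452108_PM_at -0.14 (SE 0.12) and at 1426565_PM_at -0.08 (SE 0.08). In that order these 3 stood at -0.33, -0.22 and -0.18 without both cKO 2 and WT 4. Without cKO 4 the differences were smaller, -0.19 at 1428967_PM_at, -0.12 at 1452982_PM_at, -0.05 at 1452108_PM_at and -0.03 at 1426565_PM_at. The sign was kept at each of the 4 in all settings tried. The probe sets agreed on the arrays, with r between 0.895 and 0.949 over 6 pairs. WT 1, WT 2 and WT 3 were among the upper 4 arrays in all 4 probe sets, cKO 1 in 3 of them, and WT 4, cKO 3 and cKO 4 in none.

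Irs1, the receptor substrate gene, had the second largest difference and the widest spread in cKO. Probe set 1423104_PM_at, the only named one, read 8.41, 7.51, 7.91 and 7.63 in cKO 1 to 4 and 8.48, 8.38, 8.27 and 8.31 in WT 1 to 4. cKO 2, cKO 3 and cKO 4 lay below all WT arrays, and cKO 1 lay within the WT range. The means were 7.86 ± 0.40 and 8.36 ± 0.09 (SD, n = 4 each), a difference of -0.49 (SE 0.17), which was not called with all arrays. It moved to -0.68 (SE 0.10) without cKO 1 and to -0.37 (SE 0.16) without cKO 2. Of 16 alternative settings, the one without cKO 1 was the only 1 in which Irs1 was called.

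**Figure D3:**
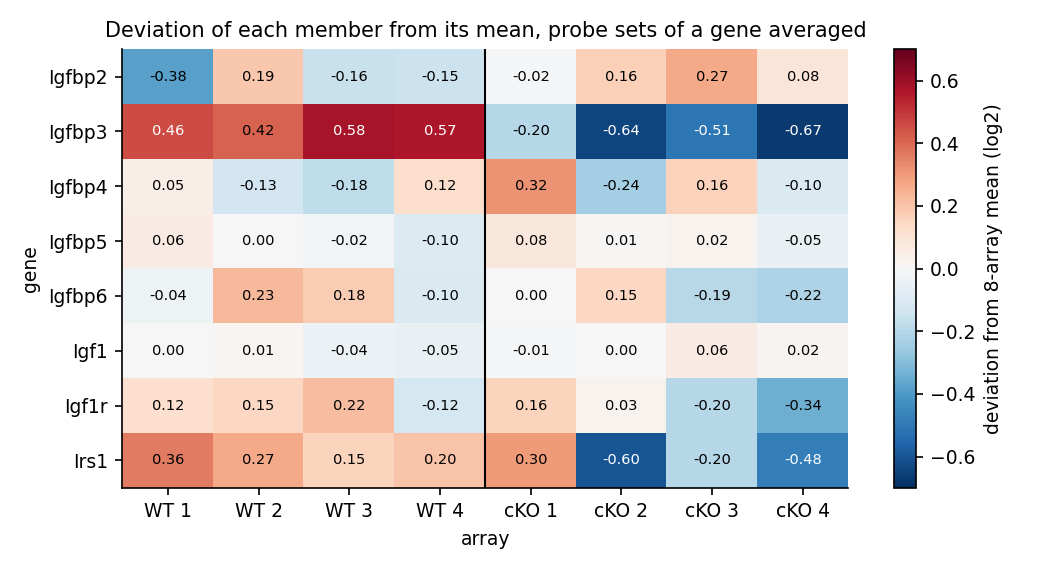
Deviation of each member from its own mean over the 8 arrays (log2, colour and printed number; probe sets of a gene averaged), with WT arrays left of the line and cKO arrays right of it. Igfbp3 parts the groups (0.42 to 0.58 in WT, -0.67 to -0.20 in cKO); cKO 1 stands at 0.30 for Irs1 and 0.32 for Igfbp4, apart from cKO 2 and cKO 4.

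The promoters of Irs1 and Igf1r are shown because, among the members, these are the signalling genes with the largest differences. They are the 250 bases before the RefSeq start (GRCm38.p6), chr1:82291440-82291689 on the minus strand and chr7:67952007-67952256 on the plus strand, with GGGCGG and CACGTG on either strand in capitals.
Irs1: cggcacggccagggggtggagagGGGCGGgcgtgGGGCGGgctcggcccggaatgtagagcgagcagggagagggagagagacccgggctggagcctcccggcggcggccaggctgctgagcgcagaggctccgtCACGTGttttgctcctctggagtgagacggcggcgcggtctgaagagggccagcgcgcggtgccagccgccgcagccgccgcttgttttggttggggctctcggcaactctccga
Igf1r: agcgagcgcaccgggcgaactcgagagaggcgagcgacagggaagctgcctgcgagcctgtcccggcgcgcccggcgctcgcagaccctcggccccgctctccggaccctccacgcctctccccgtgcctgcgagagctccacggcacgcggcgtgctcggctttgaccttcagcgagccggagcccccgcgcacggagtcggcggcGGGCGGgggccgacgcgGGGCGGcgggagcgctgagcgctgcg
Irs1 has 2 GC boxes and 1 E-box and no TATA motif; Igf1r has 2 GC boxes and none of the others. Its 42 CpG exceed those of 99.1% of all windows, and the 28 of Irs1 those of 92.4%. Of all windows 32.7% hold a GC box and 6.02% this E-box. All 10 members have a promoter window, and Igfbp2 has a further one that holds none of these motifs, which makes 11 windows. Counted per gene, while the shares are per window, 5 hold a GC box (Igfbp2, Igfbp7, Igf1r, Irs1 and Irs2). A TATA motif is held by 3 (Igfbp3, Igfbp4 and Igfbp6) and the E-box by 3 (Igfbp2, Irs1 and Irs2). The Igfbp6 match is on the opposite strand, 148 bases before the start. No member holds GTAAACA, the FOXO motif, on either strand, which 3.17% of all windows hold.

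Among the members, Irs1 had the pattern most like that of Igfbp3, with r of 0.84 over the 8 arrays and 0.84 over deviations from the group means; both were highest in cKO 1 among the cKO arrays. The 4 probe sets of Igf1r stood at r of 0.41 to 0.69 over the 8 arrays and 0.28 to 0.61 over deviations. The 6 of Igfbp4 stood near 0 over the 8 arrays (-0.12 to 0.09) and at 0.71 to 0.82 over deviations. These correlations describe 8 arrays of 2 groups, in which cKO 1 weighs heavily.

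**Figure D4:**
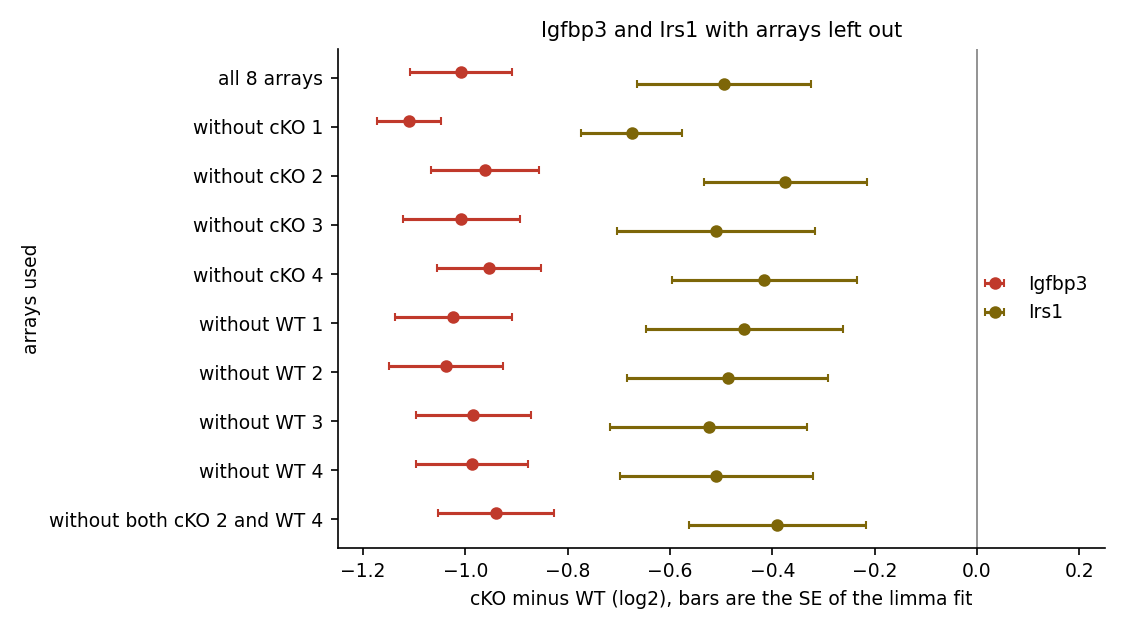
Difference of cKO minus WT (log2, horizontal axis) of Igfbp3 and Irs1 with all 8 arrays and with arrays left out (vertical axis); bars are the SE of the limma fit. Igfbp3 stays between -1.11 and -0.94, and Irs1 between -0.68 and -0.37.

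Over all probe sets that name another single gene, the patterns most like Igfbp3 were those of Cyp2c55, a cytochrome P450 (r = 0.984), Dnajc3, a chaperone cofactor of the endoplasmic reticulum (0.976), Ehmt2 itself at 1460692_PM_at (0.976), Tex47 (0.975), Vldlr, a lipoprotein receptor (0.975), and Nop53, a ribosome biogenesis factor (0.973), over 8 arrays. Their sizes differ widely: Ehmt2 stood at -2.88 (SE 0.19), Nop53 at -0.92 (SE 0.08), Vldlr at -0.41 (SE 0.08), Dnajc3 at -0.22 (SE 0.04), Tex47 at -0.19 (SE 0.04) and Cyp2c55 at -0.11 (SE 0.04). Cyp2c55 read 3.86 ± 0.04 in cKO and 3.97 ± 0.00 in WT (SD, n = 4 each), at the dim end of the table. Tex47, with means of 4.25 in cKO and 4.44 in WT, was dim as well. The patterns most opposed were those of Robo4, a guidance receptor (r = -0.995), Armcx2 (-0.991), Pcbd1, a cofactor enzyme (-0.987), and Ift27, an intraflagellar transport protein (-0.984), with differences of 0.08, 0.40, 0.63 and 0.26. Of these, Robo4 (means of 4.26 in cKO and 4.18 in WT) and Armcx2 (4.66 and 4.26) were also dim. All genes named for their r over the 8 arrays are extremes of many probe sets, and the group difference enters each r. Over deviations from the group means the closest were Hbs1l (r = 0.993), Cgnl1 (0.992), Prkci (0.990) and Col5a1 (0.989), of which Hbs1l differed by -0.01 and Cgnl1 by 0.11 between the groups. These genes too are extremes picked from many probe sets over 8 arrays, so nothing is read from the size of their r.

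The rest of the IGF pathway gave no call. Of 59 further genes listed by role, 52 had 113 named probe sets. The limma fit over all probe sets called none of these in either direction, beside 0.393% of all probe sets called higher and 0.0733% lower. With shares this low, the lack of a call among 113 probe sets says little about the pathway. An unadjusted limma p under 0.05 was found for 7 (4 higher and 3 lower in cKO), which is 6.19% against 7.98% of all probe sets. The median difference was 0.01, as over all probe sets (0.01), with 57 above and 56 below 0. Over the 19 member probe sets the median was 0.03. The most positive difference was that of Pik3r3, a regulatory subunit of PI3 kinase, with 7.04 ± 0.16 in WT and 7.39 ± 0.11 in cKO (SD, n = 4 each; difference 0.35, SE 0.09, limma adjusted p = 0.203). All 4 cKO arrays lay above all 4 WT arrays in 1 of 113 probe sets, that of Pik3r3, beside 3.17% of all probe sets, and below them in 2, of Pappa2 and Pdpk1, beside 1.72%. The most negative difference was that of Mtor, a kinase of growth control, at 1446185_PM_at (-0.22, SE 0.08, limma adjusted p = 0.446). That probe set averaged 5.24 over the 8 arrays. The other Mtor probe sets averaged 8.24 and 8.65 and stood at -0.07 and -0.06.

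Upstream of the receptor, none of 7 probe sets of 5 ligand and carrier genes was called. Igfbp1, the carrier gene next to Igfbp3, stood at -0.11 (SE 0.07), Igfals, the subunit that joins the IGFBP3 complex in blood, at 0.07 (SE 0.06) and Igf2, the second ligand, at 0.06 (SE 0.05) and -0.06 (SE 0.05) at its 2 probe sets, with means over the 8 arrays of 4.21 to 5.27. None of 9 probe sets of 4 receptor genes was called: Tmem219, an IGFBP3 receptor, stood at 0.21, 0.14 and 0.07, the insulin receptor gene Insr at -0.12 to 0.01, and Lrp1, a large endocytic receptor, at -0.12 and 0.12. None of 12 probe sets of 6 genes for IGFBP proteases and their inhibitors was called; Pappa stood at -0.15 (SE 0.07) at 1 probe set, Pappa2 at -0.12 (SE 0.05) and Stc1, a PAPPA inhibitor, at 0.07 (SE 0.05), with means over the 8 arrays of 3.71 to 4.01.

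Downstream, none of 47 probe sets of 22 adapter and PI3K-AKT genes and none of 30 probe sets of 13 FOXO and mTOR genes was called, with median differences of -0.01 and 0.00. The exchange factor gene Sos1 stood at -0.17 (SE 0.08), with a mean over the 8 arrays of 4.02, at the dim end. The PI3 kinase subunit gene Pik3r1 stood at 0.04 to 0.17, the translation repressor gene Eif4ebp1 at 0.18 (SE 0.07) and 0.01, and Rictor, of mTOR complex 2, at -0.17 to 0.03. The IGF2 mRNA-binding protein genes Igf2bp1 and Igf2bp3, with 8 probe sets, stood between -0.06 and 0.08. At these standard errors a change of the size seen in Igfbp3 was not seen in any of them, while smaller changes may have been missed. In dim probe sets, such as that of Sos1, a fall of that size could not have been read.

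**Figure D5:**
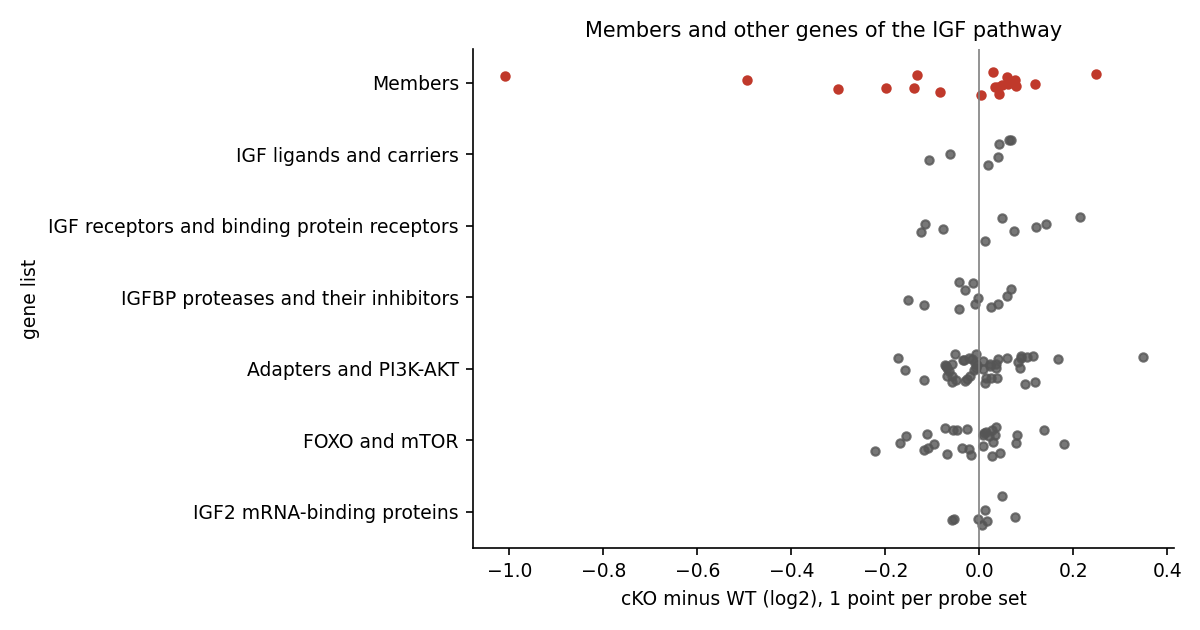
Difference of cKO minus WT (log2, horizontal axis) for the 19 member probe sets (top) and 113 probe sets of other IGF pathway genes by list; each point is 1 probe set over 4 cKO and 4 WT arrays, and vertical scatter within a list is for display. The other genes lie between -0.22 and 0.35, and Igfbp3 at -1.01 and Irs1 at -0.49 lie outside that range.

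Genes that mark further cell types of skin were read beside these values, since Igf1, Igfbp4 and Igfbp5 are known from stromal cells. The fibroblast list (9 of 10 genes measured, mean of the list per array) read 5.04 to 5.24 in cKO and 5.08 to 5.15 in WT, and 6 of its 9 genes averaged below 5, while Postn averaged 10.28. The endothelial list (10 of 10) read 4.69 to 4.82 and 4.71 to 4.74, with 8 of 10 genes below 5. The list of pericytes and smooth muscle (5 of 7) read 5.66 to 5.74 and 5.54 to 5.67. It was led by the brighter probe set of Acta2, at 0.41 (SE 0.11, limma adjusted p = 0.248). The other Acta2 probe set stood at 0.07 (SE 0.09). Probe sets of the other measured genes of this list stood between -0.08 and 0.05. The list of Langerhans and dendritic cells (5 of 5) read 7.19 to 7.81 and 6.74 to 7.57, a difference of 0.27 that was 0.09 without WT 4. In it Cd207, which marks Langerhans cells, averaged 4.63 and differed by 0.03, and Itgax differed by 0.02. The antigen presentation genes stood higher in cKO: Cd74 by 0.49 (SE 0.32), H2-Aa by 0.11 to 0.40 and H2-Ab1 by 0.16 to 0.39 over their probe sets. The hair follicle list (9 of 10) read 6.82 to 7.04 and 6.89 to 7.02. Over 11 lists, exact permutation tests of the list mean (two-sided, 70 arrangements, smallest possible p 0.0286) gave a lowest p of 0.0571, for the list of pericytes and smooth muscle, and of 0.584 after Benjamini-Hochberg adjustment. At this size a single list could not pass: the smallest p adjusted over 11 lists would be 0.314. None of 105 marker probe sets was called by limma, beside 0.393% of all probe sets called higher and 0.0733% lower. An unadjusted limma p under 0.05 was found for 8, which is 7.62% against 7.98% of all probe sets. With shares so alike, these counts say little about cell types. Groups overlapped in all 11 lists. The part of other cell types in the member values was not tested.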

How the data were processed

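Expression was measured on 1-colour oligonucleotide arrays in 8 samples, 4 G9a cKO and 4 G9a WT. Per the submitters' processing notes, the authors obtained the deposited log2 values by RMA, with no version or setting named. The log2 scale is inferred from the range of 3.06 to 13.03, and centring could not be set against scanner files, which were not used. RMA equalises the arrays, which hides any shift common to the whole array.

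Of 45141 rows, 104 are control probe sets and were dropped, and the other 45037 were tested; 28898 name 1 gene, 551 several and 15588 none here. Entrez numbers of 28689 were matched to a reference table (GRCm38.p6) for current symbols. Groups were compared with limma 3.58.1 (lmFit, eBayes; R 4.3.3). The two-sided p-values were adjusted by Benjamini-Hochberg over all probe sets, and called under 0.05. Errors are standard errors of this fit or SD. No filter was applied. Arrays give no depth; their number limits precision. Simulated data had 200 changed of 45037 probe sets (cKO against WT, 5 runs). In them 74.6% of changes of 0.5 and 95.0% of changes of 1 (log2) were recovered, and 4.94% of calls were false. Values were drawn independently with the SD of each probe set, without variation shared by probe sets of an array. The changed probe sets were drawn at random from all, so these percentages do not give the recovery for a given member.

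Members and lists were chosen with earlier results of these data known. Named genes are all members; per pathway list up to 3 with the largest difference; and the 6 most and 4 least like Igfbp3, with 4 closest in deviations. Acta2, Postn, Cd207, Itgax, Cd74, H2-Aa, H2-Ab1, Igf2bp3 and the neighbouring genes were named after their values were seen. Promoter sequences and names come from RefSeq. Alternatives were a replicate block, a filter on dim probe sets, repeated quantile normalization, median centring, a variance trend, array weights, 1 probe set a gene, a threshold of 0.1 and leaving out arrays. Plots were drawn with matplotlib 3.10.9.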

Additional observations from a re-analysis of the deposited data

How the results depend on the processing

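Igfbp3 was called lower in each of 16 alternative fits, at -1.11 to -0.94 (log2). These refits use the same arrays whose difference chose Igfbp3, so the repeated calls are a description and support nothing. The number of member probe sets called lower was 1 with all arrays and 1 to 2 with single arrays left out; the second was Irs1 without cKO 1. No member was called higher, and no other pathway gene was called, in any setting. Over all probe sets, 177 were called higher and 33 lower. Leaving out single arrays gave 85 to 265 higher and 18 to 91 lower. Without both cKO 2 and WT 4 there were 472 and 185, with array weights 584 and 174, among the upper 50% of probe sets by mean 112 and 20, and at a threshold of 0.1, 280 and 63. The cause was not tested, except that the filter leaves fewer probe sets. With the replicate number as a block 143 were higher and 32 lower, Igfbp3 stayed called, and no other member was. The labels do not say what the numbers mean: deviations of same-numbered arrays correlated at 0.134, 0.221, -0.624 and 0.368, and 2 of 4 cKO arrays matched their own number best, which does not settle whether they pair, and they were not treated as pairs. The median difference over all probe sets was 0.01, and -0.01 after median centring. All 10 genes named as most and least like Igfbp3 kept an r beyond 0.9 in size without both cKO 2 and WT 4. They were picked by their r over arrays that include the remaining ones, so this is a description and supports nothing. With any 1 array left out, the difference of the Langerhans and dendritic cell list ran from 0.09 to 0.38. That of the keratinocyte list ran from -0.01 to 0.02. Dim probe sets (Igf1, Igfbp5) limit what can be said of those genes.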

Other observations

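The genes next to Igfbp3 and Irs1 on their chromosomes, 3 protein-coding genes on either side in RefSeq order, did not pass the test; they were chosen after the members' values were seen. Beside Igfbp3 on chromosome 11, Ramp3, a receptor-modifying protein gene, stood at -0.45 (SE 0.15, limma adjusted p = 0.404), Adcy1, an adenylyl cyclase gene, at 0.01 and 0.03, Igfbp1 at -0.11, and Tns3, a focal adhesion gene, at 0.14 and 0.16. Beside Irs1 on chromosome 1, Rhbdd1, a rhomboid protease gene, stood at 0.19 (SE 0.05, limma adjusted p = 0.211), Dock10 at 0.13, Cul3, a ubiquitin ligase scaffold gene, between -0.06 and 0.08 at 5 probe sets, and the collagen genes Col4a4 and Col4a3 between 0.00 and 0.13. Pkd1l1, Gm40814 and Nyap2 had no named probe set.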
